A study of Mus musculus with 6 samples.

Results

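Trp53, the mouse gene that encodes the transcription factor p53, and 9 genes known as its targets were followed by name: Cdkn1a, Mdm2, Ccng1, Sesn1, Phlda3, Trp53inp1, Zmat3, Plk2 and Btg2. These 10 genes were taken from the 55291 genes listed, each was found at 1 locus, and all 10 were among the 14290 genes that passed the filter on low counts. PolyA RNA was sequenced from wild-type (WT) mouse embryonic fibroblasts (MEFs), cells that the study received from another laboratory. Whether and how these MEFs were immortalised is not given in the sources used here, a limit for p53 work since MEFs often lose p53 or ARF function when they escape senescence, and p53 protein was not measured in these libraries. The 3 groups were vehicle, MASM7 (1 μM, 6 h) and MFI8 (20 μM, 6 h), with 2 libraries in each, which the series describes as independent biological replicates. MASM7 is a small molecule activator, and MFI8 a small molecule inhibitor, of the mitofusins MFN1 and MFN2, the GTPases that fuse the outer membranes of mitochondria. WT stands for cells in which neither Mfn1 nor Mfn2 was deleted, the labels do not say how long vehicle was applied, and because the compounds were used at different doses, compound and dose cannot be told apart.

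p53 is kept at a low level by MDM2, a ubiquitin ligase that marks it for degradation. When DNA damage or other stress blocks this step, p53 accumulates mainly as protein rather than through its own mRNA, binds paired half-sites in promoters and introns, and activates genes that halt the cell cycle, repair DNA or cause cell death. MEFs are widely used to study arrest through p21, the product of Cdkn1a, and mRNA of the targets is a common readout of p53 activity.

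The promoters of these genes differ in whether they hold the letters of a p53 half-site, and the 4 windows below are shown because they stand for both kinds. Cdkn1a and Mdm2 have a half-site, and Plk2 and Btg2 have a cyclic AMP response element (CRE), the site of the CREB family, and no half-site. Each window runs from 250 bases before a RefSeq start site to 50 bases from it on, is written 5′ to 3′ on the strand of the gene, and comes from RefSeq on build GRCm38.p6. Capitals mark a half-site that matches the p53 consensus with no mismatch, or the CRE (TGACGTCA), searched on both strands.
Cdkn1a, chr17:29090729-29091028, plus strand: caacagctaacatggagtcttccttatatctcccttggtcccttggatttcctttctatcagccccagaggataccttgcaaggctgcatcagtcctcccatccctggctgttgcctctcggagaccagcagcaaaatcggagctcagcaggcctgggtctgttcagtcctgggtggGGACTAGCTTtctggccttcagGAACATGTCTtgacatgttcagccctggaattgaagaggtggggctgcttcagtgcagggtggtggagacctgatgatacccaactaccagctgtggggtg
Mdm2, chr10:117710709-117711008, minus strand: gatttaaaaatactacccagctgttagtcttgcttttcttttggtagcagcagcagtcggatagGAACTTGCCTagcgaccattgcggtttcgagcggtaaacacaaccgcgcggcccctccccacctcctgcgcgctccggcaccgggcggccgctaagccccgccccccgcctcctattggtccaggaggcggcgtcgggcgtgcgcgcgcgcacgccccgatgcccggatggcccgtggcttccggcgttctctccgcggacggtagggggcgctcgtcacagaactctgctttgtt
Plk2, chr13:110394794-110395093, plus strand: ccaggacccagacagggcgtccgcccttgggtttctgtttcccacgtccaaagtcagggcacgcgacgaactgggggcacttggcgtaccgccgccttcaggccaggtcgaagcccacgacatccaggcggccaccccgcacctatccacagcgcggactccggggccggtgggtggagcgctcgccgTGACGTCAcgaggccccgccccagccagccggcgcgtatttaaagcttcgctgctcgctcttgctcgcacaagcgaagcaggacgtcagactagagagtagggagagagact
Btg2, chr1:134079106-134079405, minus strand: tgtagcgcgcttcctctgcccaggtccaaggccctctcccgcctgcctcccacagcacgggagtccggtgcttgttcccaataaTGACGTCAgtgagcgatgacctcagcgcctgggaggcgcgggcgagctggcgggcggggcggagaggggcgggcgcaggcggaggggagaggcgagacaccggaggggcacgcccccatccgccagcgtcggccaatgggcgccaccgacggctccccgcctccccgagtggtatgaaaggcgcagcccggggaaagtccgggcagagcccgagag
The Cdkn1a window held 2 half-sites with no mismatch, which began 73 and 51 bases before the start site and lay 12 bases apart. Stretches with a mismatch were not searched, also not those next to these 2, and whether the 2 act as a pair was not tested. The start of this Cdkn1a window was the upstream one of a pair of RefSeq starts, and the window at the other start, 2790 bases downstream, held no match. In the Mdm2 window the half-site began 186 bases before the start, and the CRE began 62 bases before the start of Plk2 and 166 bases before that of Btg2.

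Windows were at hand for 8 of the 10 genes, 10 windows in all, and not for Trp53inp1 or Zmat3. At least 1 half-site was found for 5 of these 8 genes (Trp53, Cdkn1a, Mdm2, Ccng1 and Sesn1), in 5 of their 10 windows. Of all 32851 RefSeq promoter windows, 8.36% held one. The CRE was found for Plk2 and Btg2, in 2 of the 10 windows, and in 1.79% of all windows. The AP-1 motif (TGANTCA, 7.81% of all windows) and the CArG box (1.63%) were found in the window of no member. The letters of the TATA box (TATAAA, 13.6%) were found only in that of Trp53. There the match lay on the strand opposite to the gene, 248 bases before the start. A match is a string of letters and no measurement of binding, and sites in introns or farther upstream were not searched.

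On build GRCm38, in the GENCODE vM21 annotation, Trp53 lies at chr11:69580359-69591873 and Cdkn1a at chr17:29090976-29100727, both on the plus strand. Mdm2 lies at chr10:117688875-117710758 on the minus strand, Plk2 at chr13:110395046-110400844 on the plus strand and Btg2 at chr1:134075170-134079120 on the minus strand. Ccng1 (chr11:40748552-40755311) and Zmat3 (chr3:32334792-32366014) lie on the minus strand, and Sesn1 (chr10:41809935-41908424), Phlda3 (chr1:135766119-135769136) and Trp53inp1 (chr4:11156431-11174379) on the plus strand. All 10 genes are annotated as protein coding, and counts were taken over their exons. Of the 3553 exonic bases of Cdkn1a, 273 were shared with AC167363.2, an unclassified transcript on the opposite strand, and since the strand setting of the counting is not given in the sources used here, reads of both cannot be told apart there. No other member shared exonic bases with another gene.

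The libraries had 22791792 to 30677751 counts, and 20599 to 21558 genes had a count in each. Of 9 fibroblast markers, 8 were at or above 1 TPM, a level scaled by gene length and library depth, in every library, the exception being Thy1 at 0.283 to 0.751 TPM. The summed fibroblast markers were 5571 to 6930 TPM with vehicle, 6129 to 6972 with MASM7 and 5424 to 6589 with MFI8. None of 5 epithelial markers (summed 1.44 to 2.21 TPM) or 4 endothelial markers (summed 0.212 to 0.433 TPM) reached 1 TPM in every library. Of the blood markers only Cd68 did (8.91 to 11.9 TPM), with Adgre1 and Hbb-bs at 0, and of the neural markers Nes (211 to 246 TPM) and Tubb3 (47.1 to 68.4 TPM) did, with Sox2 at 0. The summed neural markers were 261 to 262 TPM with vehicle, 279 to 289 with MASM7 and 289 to 307 with MFI8, and their part in the results was not tested.

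Levels per length, in TPM, set the genes in an order that spanned Plk2 to Trp53inp1. With vehicle, Plk2, a polo-like kinase, stood highest at 383 ± 30.3 TPM (SD, n = 2), followed by Trp53 at 253 ± 5.26 and by Ccng1, which encodes cyclin G1, at 105 ± 3.5. Phlda3, an inhibitor of AKT, was at 96.2 ± 7.11 TPM, Mdm2 at 60.2 ± 1.66 and Cdkn1a at 47.8 ± 14.4. Sesn1, a sestrin that restrains growth signalling through mTORC1, was at 29.8 ± 4.07 TPM and Zmat3, a zinc finger protein that binds RNA, at 19.3 ± 0.414. The antiproliferative gene Btg2 at 7.14 ± 0.405 TPM and Trp53inp1, a regulator of p53-dependent stress responses, at 1.04 ± 0.0467 were the lowest. In vehicle the ranges of neighbours in this order did not overlap. With MASM7 Phlda3 (108 ± 12.8 TPM) stood before Ccng1 (93.6 ± 10.2) with overlapping ranges, and Mdm2 overlapped Cdkn1a, while with MFI8 Ccng1 (96.9 TPM on average) overlapped Phlda3 (95.7).

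**Figure D1:**
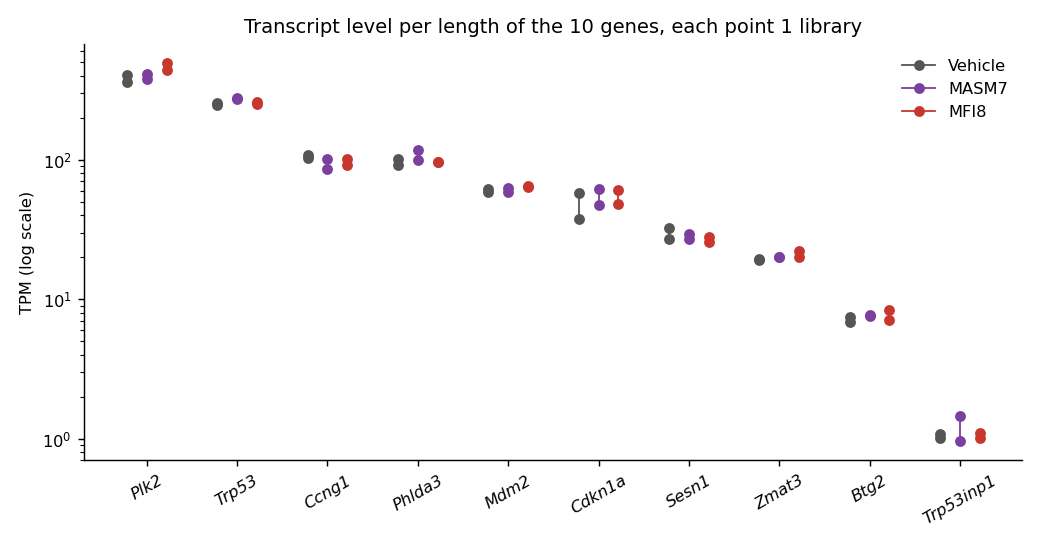
TPM of the 10 genes on a log scale, with 1 point for each library, coloured by group, and the genes ordered by their mean with vehicle. Plk2 and Trp53 lie above 200 TPM and Trp53inp1 near 1 TPM in each group, and the points of Cdkn1a spread most within vehicle.

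The comparisons against vehicle addressed whether inhibition or activation of the mitofusins for 6 h came with a different level of these transcripts. With MFI8, Plk2 had the largest difference of the 10 genes, 1.20-fold, and with MASM7 Trp53 had the smallest unadjusted p, at 1.10-fold. Mdm2, whose transcript is a standard readout of p53 activity, was 1.05-fold its vehicle level with MFI8 and 1.02-fold with MASM7. Of the 10 genes, 0 passed an adjusted p of 0.05 with MFI8 and 0 with MASM7 by the quasi-likelihood test of edgeR, with p-values adjusted by Benjamini-Hochberg across the 14290 genes tested and no replicate block, and the share among all genes was 0% in both comparisons. Alternatives under which Plk2 passed with MFI8 are given with that gene below. An unadjusted p under 0.05 was reached by 1 of 10 members with MFI8 (Plk2) and 1 of 10 with MASM7 (Trp53), beside 9.86% and 10.2% of all genes, so the members were called at the rate of the background.

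The fitted folds of the 10 genes lay between 0.890 and 1.20 with MFI8 and between 0.899 and 1.18 with MASM7, and no member differed by over 0.3 on the log2 scale, which 15.7% and 14.1% of all genes did. The 10 genes had a median log2 fold change of 0.036 with MFI8 and 0.099 with MASM7, beside 0.0027 and 0.0007 over all genes tested. These medians moved with single libraries, that of MFI8 to -0.035 without MFI8 replicate 2 and to 0.0025 without vehicle replicate 2, and that of MASM7 to 0.046 without MASM7 replicate 1. The 95% interval of the fold lay within 1.5-fold either way for 9 of 10 genes with MFI8, the exception being Trp53inp1, and for 8 of 10 with MASM7, the exceptions being Cdkn1a and Trp53inp1. The 2 treated libraries did not overlap the 2 vehicle libraries for 4 of 10 genes with MFI8 (3 higher, 1 lower) and for 4 of 10 with MASM7 (3 higher, 1 lower), where 40.2% and 42.8% of all genes did not overlap in either direction. DESeq2 called 47 genes with MFI8 and 3 with MASM7, and limma on log2(TPM + 1) called 8 and 14, with 0 of the 10 members among them in each case. Both comparisons use the same 2 vehicle libraries and are not independent of each other. Fewer cells that express a gene and less of its RNA in each cell cannot be told apart in these bulk libraries.

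**Figure D2:**
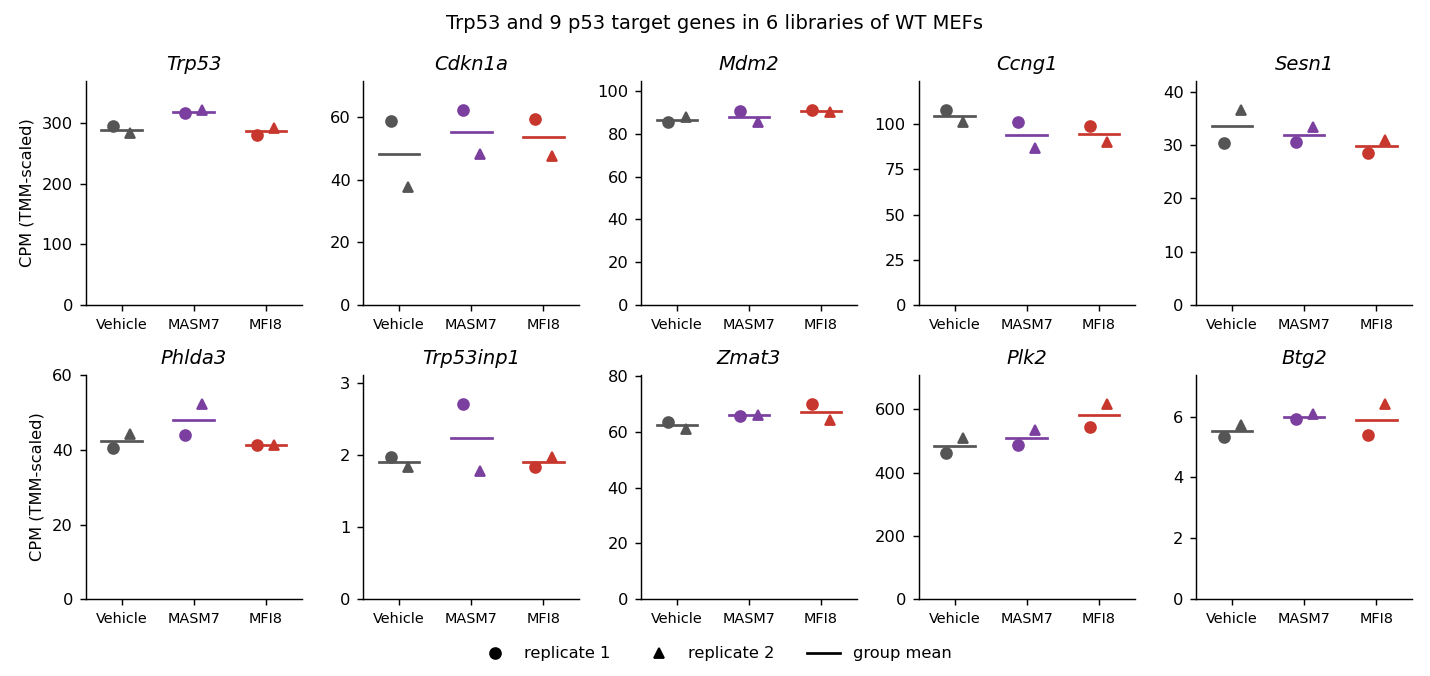
CPM (counts scaled by library depth with TMM factors) of each gene in the 6 libraries, with 1 panel for each gene, circles for replicate 1, triangles for replicate 2, horizontal bars for the mean of a group, and axes that start at 0. Both MFI8 libraries of Plk2 and both MASM7 libraries of Trp53 lie above their vehicle libraries, and for Cdkn1a the circle lies above the triangle in every group.

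Trp53 and the genes whose products act back on p53, Mdm2 and Ccng1, varied by at most 1.24 times between any 2 libraries. In CPM, counts scaled by library depth with TMM factors, Trp53 was at 295 and 283 with vehicle, 317 and 321 under MASM7, and 281 and 292 under MFI8. Both MASM7 libraries lay above the other 4, and the MFI8 libraries overlapped those of vehicle. The log2 fold change of Trp53 was 0.14 with MASM7 (SE 0.051, 95% interval 0.028 to 0.26, unadjusted p = 0.0196, edgeR adjusted p = 0.473), and it was -0.012 with MFI8 (SE 0.051, 95% interval -0.13 to 0.10). These intervals in folds ended at 1.19 with MASM7 and at 1.07 with MFI8. The unadjusted p of Trp53 with MASM7 was under 0.05 in 13 of 17 alternatives, and it was 0.0888 with offsets for GC content and length (log2 fold change 0.079), 0.0792 with limma, 0.102 without vehicle replicate 2 and 0.0779 without MASM7 replicate 2.

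Mdm2, the ubiquitin ligase that is both a p53 target and its main inhibitor, was at 85.4 and 87.7 CPM with vehicle, 90.4 and 85.5 under MASM7, and 90.9 and 90.2 under MFI8. The MFI8 libraries lay just above those of vehicle, while one MASM7 library lay between them and the other above. Mdm2 was the steadiest of the 10 genes, its highest library being 1.06 times its lowest, and the SD of its log2 CPM over the 6 libraries, 0.037, stood at the 4.96th percentile of all genes tested. Its mean level stood at the 79.1st percentile, counting error is larger for genes of lower level, and its spread was not set against genes of like level. The 95% interval of its fold was 0.959 to 1.14 with MFI8 and 0.931 to 1.11 with MASM7 (edgeR adjusted p = 0.728 and 0.906), so a rise of Mdm2 above 1.14-fold was outside both intervals.

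Ccng1, whose product cyclin G1 recruits a phosphatase that acts on MDM2, was at 108 and 101 CPM with vehicle, 101 and 86.9 under MASM7, and 99.0 and 89.9 under MFI8. All 4 treated libraries lay below both of vehicle, with the higher MASM7 library just under the lower one of vehicle. Ccng1 was the only member that lay lower in both comparisons without overlap. The intervals included no difference in either comparison (edgeR adjusted p = 0.572 with MFI8 and 0.531 with MASM7).

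Cdkn1a encodes p21, the inhibitor of cyclin-dependent kinases through which p53 arrests the cycle, and its differences between replicates were larger than those between groups. It was at 58.6 and 37.6 CPM with vehicle, 62.1 and 48.2 under MASM7, and 59.4 and 47.6 under MFI8. Replicate 1 was the higher library in all 3 groups, vehicle replicate 2 was the lowest of all, and the groups overlapped. On the log2 CPM scale replicate 2 was lower than replicate 1 by 0.64 with vehicle, 0.37 with MASM7 and 0.32 with MFI8. Among all genes tested, 407 (2.85%) had differences between replicates of one sign in the 3 groups that were each at least as large as the smallest of Cdkn1a.

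The log2 fold change of Cdkn1a was 0.15 with MFI8 (SE 0.19, 95% interval -0.27 to 0.58) and 0.20 with MASM7 (SE 0.19, 95% interval -0.22 to 0.62). In folds, the upper ends were 1.49 and 1.54. Leaving out 1 library, which leaves the replicate numbers unbalanced between groups, moved the log2 fold change to -0.14 with MFI8 and -0.089 with MASM7 without vehicle replicate 2, to 0.51 and 0.55 without vehicle replicate 1, and to -0.0093 with MFI8 without MFI8 replicate 1. Within a replicate number Cdkn1a was higher with treatment in each case, by 0.020 and 0.34 on the log2 CPM scale for MFI8 and by 0.082 and 0.36 for MASM7. With the replicate number as a block the log2 fold change was 0.17 with MFI8 and 0.21 with MASM7 (unadjusted p = 0.0151 and 0.00353, edgeR adjusted p = 0.141 and 0.0666, range over the alternatives 0.141 to 0.998 and 0.0666 to 0.999), which did not pass.

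Plk2 and Btg2 are targets of p53 that are also known as immediate early genes, and both held the CRE shown above and no half-site in their windows. Plk2 encodes a polo-like kinase that regulates centriole duplication, and its transcript was at 461 and 509.7 CPM with vehicle, 488 and 533 under MASM7, and 545 and 617 under MFI8. Both MFI8 libraries lay above the other 4, and the MASM7 libraries overlapped those of vehicle. With MFI8 its log2 fold change was 0.26 (SE 0.075, 95% interval 0.092 to 0.43, unadjusted p = 0.00620, edgeR adjusted p = 0.357), which put it at rank 246 of the 14290 genes by p, and with MASM7 it was 0.072 (SE 0.075, 95% interval -0.095 to 0.24). Plk2 passed with MFI8 when genes were kept on a single count in any library, a setting under which 256 genes were called (edgeR adjusted p = 0.000269). It also passed each time the replicate number was fitted as a block, at an adjusted p of 0.000303 with edgeR, 1.1e-06 with DESeq2 and 2.08e-05 with edgeR and offsets for GC content and length. The labels do not say that a replicate number marks a batch, and with edgeR the block raised the calls among all genes from 0 to 720. Over the 17 alternatives the adjusted p of Plk2 with MFI8 ranged from 1.1e-06 to 0.808 and its log2 fold change from 0.17 to 0.35. The lowest of these, 0.17, came without MFI8 replicate 2 and had an unadjusted p of 0.0693.

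Btg2, which slows proliferation and recruits the CCR4-NOT deadenylase to mRNA, was at 5.35 and 5.72 CPM with vehicle, 5.91 and 6.08 under MASM7, and 5.40 and 6.41 under MFI8. Both MASM7 libraries lay above those of vehicle, and the MFI8 libraries overlapped them. These levels rest on 122 to 198 counts in a library, at which counting error alone is 9.05% to 7.11% of the value. Its log2 fold change was 0.10 with MFI8 (95% interval -0.24 to 0.44) and 0.12 with MASM7 (95% interval -0.22 to 0.45).

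Sesn1 and Phlda3 restrain growth signalling, Sesn1 upstream of mTORC1 and Phlda3 by competing with AKT for membrane lipids. Sesn1 was at 30.4 and 36.5 CPM with vehicle, 30.5 and 33.3 under MASM7, and 28.6 and 31.0 under MFI8. The groups overlapped, and the lowest library was one of MFI8, with a log2 fold change of -0.17 (SE 0.099, 95% interval -0.39 to 0.052) with MFI8 and -0.070 (SE 0.098, 95% interval -0.29 to 0.15) with MASM7. Over the 17 alternatives the log2 fold change of Sesn1 ranged from -0.29 to -0.03 with MFI8 and from -0.19 to 0.069 with MASM7. Phlda3 was at 40.4 and 44.3 CPM with vehicle, 44.0 and 52.3 under MASM7, and 41.4 and 41.4 under MFI8. The highest library was one of MASM7, the other MASM7 library lay between those of vehicle, and both MFI8 libraries lay between them too. Its log2 fold change was 0.18 with MASM7 (SE 0.089, 95% interval -0.014 to 0.38, edgeR adjusted p = 0.504) and -0.034 with MFI8 (SE 0.090, 95% interval -0.24 to 0.17). The log2 fold change with MASM7 was 0.055 without MASM7 replicate 2, 0.30 without MASM7 replicate 1 and 0.12 without vehicle replicate 1, and with offsets for GC content and length, applied together, it was 0.024 (edgeR adjusted p = 0.987).

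Zmat3, a p53 target that binds RNA and takes part in its splicing and stability, was at 63.6 and 60.9 CPM with vehicle, 65.8 and 66.1 under MASM7, and 69.9 and 64.2 under MFI8. All 4 treated libraries lay above both of vehicle, and the log2 fold changes were 0.11 (SE 0.064) with MFI8 and 0.083 (SE 0.064) with MASM7 (edgeR adjusted p = 0.610 and 0.654). Trp53inp1, which assists p53 in stress responses, was at 1.97 and 1.83 CPM with vehicle, 2.70 and 1.77 under MASM7, and 1.83 and 1.98 under MFI8. One MASM7 library stood above the other 5, the groups overlapped, and the values rest on 42 to 80 counts in a library, at which counting error alone is 15.4% to 11.2%. The interval of the fold of Trp53inp1 was 0.667 to 1.52 with MFI8 and 0.791 to 1.75 with MASM7, and a 1.5-fold higher level lay within both.

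**Figure D3:**
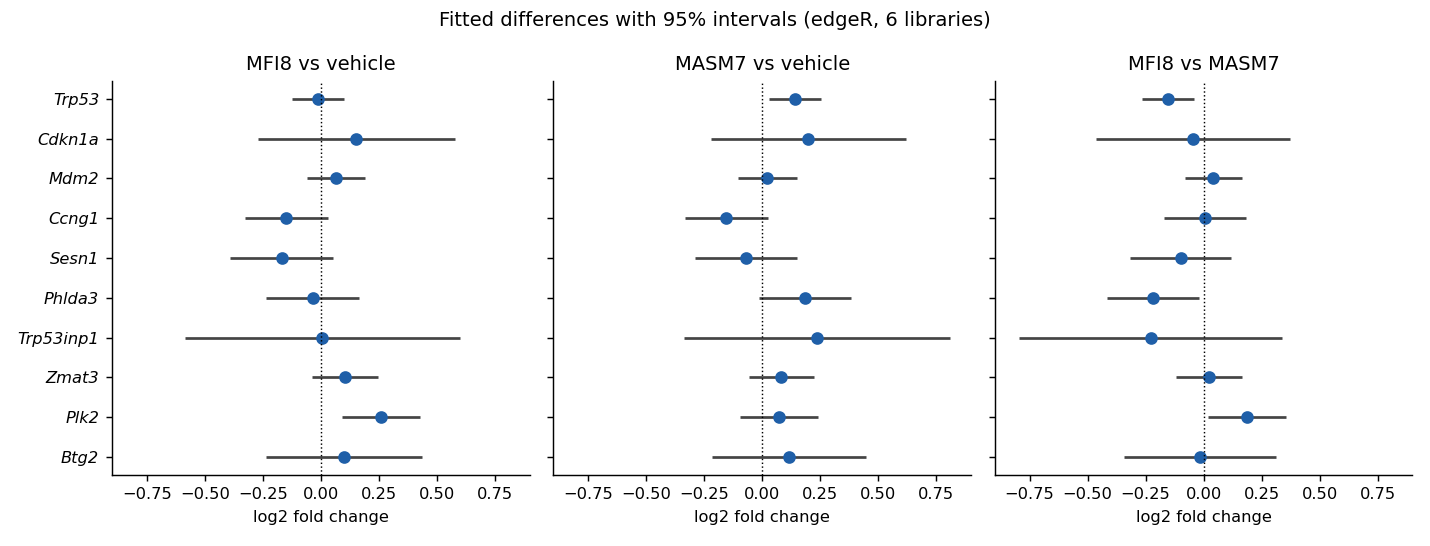
Fitted log2 fold changes of the 10 genes in 3 comparisons, with points for the estimate and horizontal lines for the 95% interval from edgeR, and a dotted line at no difference. The interval leaves out 0 for Plk2 in the comparison of MFI8 with vehicle, for Trp53 in that of MASM7 with vehicle, and for Trp53, Phlda3 and Plk2 in that of MFI8 with MASM7.

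Set against each other at their own doses of 20 μM and 1 μM, MFI8 and MASM7 left Trp53 and Phlda3 lower and Plk2 higher in both MFI8 libraries than in both MASM7 libraries. As log2 fold changes, the differences of MFI8 from MASM7 were -0.15 for Trp53 (SE 0.051, 95% interval -0.27 to -0.040), -0.22 for Phlda3 (SE 0.088, 95% interval -0.42 to -0.021) and 0.19 for Plk2 (SE 0.075, 95% interval 0.020 to 0.35). These 3 of 10 members had an unadjusted p under 0.05, at 0.0132, 0.0333 and 0.0314, beside 7.18% of all genes, and this count is a description of 10 genes chosen with results known. Of 17 alternatives, an unadjusted p under 0.05 was reached in 14 for Trp53, 11 for Phlda3 and 14 for Plk2. The log2 fold change of Phlda3 was -0.088 without MASM7 replicate 2 (unadjusted p = 0.351, edgeR), -0.34 without MASM7 replicate 1 and -0.13 with offsets for GC content and length (unadjusted p = 0.165, edgeR). That of Plk2 was 0.095 without MFI8 replicate 2 and 0.12 without MASM7 replicate 1 (unadjusted p = 0.280 and 0.201, edgeR), and that of Trp53 -0.12 without MFI8 replicate 1 (unadjusted p = 0.119, edgeR). None passed adjustment (0 of 10, background 0%, smallest edgeR adjusted p among the members 0.588), while DESeq2 called 24 genes and limma 13, with 0 members in either. With the replicate number as a block Plk2 passed, at an adjusted p of 0.0125 with edgeR, 0.00476 with DESeq2 and 0.00113 with edgeR and offsets for GC content and length, and Trp53 passed in the last of these fits alone (adjusted p = 0.0142). Over the 17 alternatives the adjusted p ranged from 0.00113 to 0.994 for Plk2 and from 0.0142 to 0.994 for Trp53. The libraries of both compounds did not overlap for these 3 genes of 10, beside 39.2% of all genes. The median log2 fold change of the members was -0.031, beside -0.0015 over all genes, and it turned to 0.052 without MASM7 replicate 1 and was -0.061 without MASM7 replicate 2, -0.051 without MFI8 replicate 1 and -0.052 without MFI8 replicate 2. For the arrest gene Cdkn1a the fold of MFI8 to MASM7 was 0.969 with an interval of 0.726 to 1.29, and for Mdm2 it was 1.03 with an interval of 0.945 to 1.12.

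Other genes of the pathway were read from 6 lists of gene names, in which 0 genes passed adjustment in any comparison with edgeR, all 6 libraries and no block, so that the counts below are of unadjusted p under 0.05 and stand beside the shares of all genes given above. With the replicate number as a block edgeR called 5.04% of all genes with MFI8, 3.88% with MASM7 and 3.07% for MFI8 against MASM7, and genes of the lists that passed in that fit are named with each list, a step added after the data had been seen. Of 18 regulators of p53, 15 were tested, with 2 higher and 0 lower with MFI8 and 0 in either direction with MASM7. The 2 were the acetyltransferases of p53 that work as its coactivators, Crebbp (54.9 and 49.1 CPM with vehicle, 59.6 and 63.9 with MFI8, log2 fold change 0.25, edgeR adjusted p = 0.392) and Ep300 (168 and 167 CPM with vehicle, 188 and 183 with MFI8, log2 fold change 0.14, edgeR adjusted p = 0.413). With MASM7 Crebbp was at 55.2 and 60.6 CPM (log2 fold change 0.16) and Ep300 at 169.8 and 170.2 (0.019). The MASM7 libraries of both genes also lay above those of vehicle. The median log2 fold change of the 15 regulators was 0.022 with MFI8 and -0.015 with MASM7. That with MFI8 moved to 0.0058 without MFI8 replicate 1 and to 0.068 without MFI8 replicate 2. Under the block 1 of the 15 passed with MFI8, Crebbp (edgeR adjusted p = 0.0214), and 0 in the other 2 comparisons. The remaining regulators among the 3 smallest p of a comparison were Hipk2 (log2 fold change 0.14 with MFI8 and 0.13 with MASM7), Kat5 (0.11 with MASM7), and Chek1 and Atr (0.12 each for MFI8 against MASM7), none past adjustment. The other regulators of p53 level included Mdm4, the partner of MDM2, at -0.058 with MFI8 and -0.015 with MASM7, and Cdkn2a, which encodes the MDM2 inhibitor ARF and the kinase inhibitor p16 from one locus, at 0.046 and 0.098 (log2 fold changes). Cdkn2a was well expressed, at 294 and 246 CPM with vehicle, 301 and 277 under MASM7, and 295 and 262 under MFI8, and its groups overlapped. Trp63 and Trp73, the p53 relatives, had at most 4 counts in a library and were not tested, and Trp53rk was not found by that name.

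Of 36 other p53 targets, 33 were tested, with 5 higher and 0 lower with MFI8 and 3 higher and 1 lower with MASM7. Their median log2 fold change was 0.024 with MFI8, which moved to 0.078 without MFI8 replicate 2, and 0.031 with MASM7. The largest difference with MFI8 was that of Gadd45a, a DNA damage gene with inducers other than p53, at 4.95 and 7.15 CPM with vehicle, 5.41 and 6.47 under MASM7, and 9.75 and 18.5 under MFI8. Both MFI8 libraries of Gadd45a lay above the other 4 and stood apart from each other (log2 fold change 1.23, SE 0.28, edgeR adjusted p = 0.269). Thbs1, which encodes the matrix protein thrombospondin-1, was at 0.31 with MFI8 and 0.28 with MASM7 (log2 fold changes, edgeR adjusted p = 0.332 and 0.466). Under the block those that passed with MFI8 included Gadd45a, Thbs1, Sesn2 and Plk3, all higher (edgeR adjusted p between 8.33e-07 and 0.00430), and those with MASM7 included Thbs1 and Sesn2, both higher (edgeR adjusted p = 0.000849 and 0.00875). For MFI8 against MASM7 the 3 that passed were Gadd45a, Plk3 and Apaf1, all higher. With MASM7 the smallest p after that of Thbs1 were those of Pidd1 (log2 fold change 0.31) and Apaf1 (-0.17), both at an edgeR adjusted p of 0.477. The apoptotic targets Bax and Bbc3 were at 0.021 and 0.13 with MFI8 and at 0.13 and -0.030 with MASM7 (log2 fold changes), and their libraries overlapped those of vehicle except for Bax with MASM7, which lay above. Pmaip1, Gdf15 and the noncoding Trp53cor1 were too low to be tested.

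Paralogs of the members gave a second view of the same families. Of 19 paralogs 14 were tested, with 3 higher and 0 lower with MFI8 and 1 higher and 0 lower with MASM7. Their median log2 fold change was -0.053 with MFI8, with 8 of 14 below 0, and -0.022 with MASM7, with 9 of 14 below 0. Of all 14290 genes tested, 7051 and 7127 lay below 0. The median of the paralogs with MFI8 was 0.033 without MFI8 replicate 1 and -0.034 without MFI8 replicate 2. The libraries did not overlap vehicle for 4 higher and 0 lower with MFI8 and for 2 higher and 5 lower with MASM7, of 14 tested, beside 40.2% and 42.8% of all genes in either direction. In the sestrin family, Sesn2, a sestrin also induced by the amino acid stress factor ATF4, was at 25.7 and 30.3 CPM with vehicle, 32.3 and 38.2 under MASM7, and 34.0 and 44.1 under MFI8, while the values of Sesn1 given above overlapped between groups. All 4 treated libraries of Sesn2 lay above both of vehicle (log2 fold change 0.49 with MFI8 and 0.33 with MASM7, edgeR adjusted p = 0.357 and 0.477). Sesn3, the other sestrin, was at 58.1 and 49.1 CPM with vehicle, 50.5 and 37.9 under MASM7, and 52.5 and 43.5 under MFI8, with groups that overlapped (log2 fold change -0.16 with MFI8 and -0.28 with MASM7, edgeR adjusted p = 0.723 and 0.516). In the polo-like kinase family, Plk3 was at 24.7 and 22.2 CPM with vehicle, 24.7 and 25.6 under MASM7, and 28.6 and 32.1 under MFI8, so that its MFI8 libraries, like those of Plk2, lay above the other 4 (log2 fold change 0.37 with MFI8, edgeR adjusted p = 0.316). Phlda1, related to Phlda3, was at 70.8 and 70.2 CPM with vehicle, 73.2 and 80.2 under MASM7, and 78.2 and 93.9 under MFI8, where the MFI8 libraries lay above vehicle for Phlda1 and between the vehicle libraries for Phlda3. Under the block Sesn2, Plk3 and Phlda1 passed with MFI8, all higher, Sesn2 (higher) and Sesn3 (lower, edgeR adjusted p = 0.0110) with MASM7, and Plk3 (higher) for MFI8 against MASM7. Among the 3 smallest p of a comparison were also Cdkn1b with MASM7 (log2 fold change -0.22, edgeR adjusted p = 0.506) and Ccng2 for MFI8 against MASM7 (0.39, edgeR adjusted p = 0.726).

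The p21 protein inhibits cyclin-dependent kinases (CDKs), so genes of the G1 to S step and genes repressed through the DREAM complex were read beside Cdkn1a. Of 20 genes of the CDK inhibitors, cyclins and kinases of the G1 to S step, 19 were tested, with 0 under 0.05 with MFI8 and 2 higher and 1 lower with MASM7, and the list's median log2 fold change was -0.001 and -0.018. The median with MFI8 turned with single libraries, to -0.029 without MFI8 replicate 1 and to 0.028 without MFI8 replicate 2. With MASM7 the lower one was Rb1, the retinoblastoma protein that p21 keeps active, at 8.68 and 7.15 CPM with vehicle, 6.05 and 5.65 under MASM7, and 8.14 and 7.12 under MFI8 (log2 fold change -0.43 with MASM7, edgeR adjusted p = 0.473). Of 20 genes of mitosis and DNA replication that p21 is known to repress through the DREAM complex, all were tested, with 0 higher and 4 lower with MFI8 and 2 higher and 4 lower with MASM7. Their median log2 fold change was -0.097 with MFI8, with 15 of 20 below 0, and -0.026 with MASM7, with 11 of 20 below 0. Of all 14290 genes tested, 7051 lay below 0 with MFI8 and 7127 with MASM7. The libraries of the 20 genes did not overlap vehicle for 3 higher and 11 lower with MFI8. With MASM7 they were 3 higher and 7 lower, and the shares of all genes in either direction were 40.2% and 42.8%. Without MFI8 replicate 1 the median with MFI8 was -0.051, and without MFI8 replicate 2 it was -0.13. Ccna2, which encodes cyclin A2, was at 444 and 482 CPM with vehicle, 427 and 421 under MASM7, and 414 and 408 under MFI8, so that all 4 treated libraries lay below both of vehicle (log2 fold change -0.17 with MFI8 and -0.13 with MASM7, edgeR adjusted p = 0.388 and 0.479). Under the block Ccna2 and Kif23 passed with MFI8, both lower (edgeR adjusted p = 0.0229 and 0.0302), and Mybl2 with MASM7, higher (0.0213). In the G1 to S list E2f4 (higher) and Ccne2 (lower) passed with MASM7, Ccnd1 (lower) for MFI8 against MASM7, and 0 of 19 with MFI8. The smallest p of the G1 to S list with MFI8 was that of Cdkn2d (log2 fold change -0.15, edgeR adjusted p = 0.692), followed by Ccne2 (-0.12) and Cdkn2c (-0.088). Cdk4 was at 0.14 with MASM7 and Rbl1 at 0.14 for MFI8 against MASM7 (log2 fold changes). Of the DREAM list, Cdk1 was at -0.14 with MFI8, Cdc20 at 0.16 and Top2a at -0.15 with MASM7, and Cdc20 at -0.13 and Kif20a at -0.11 for MFI8 against MASM7 (log2 fold changes), none past adjustment with or without the block.

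The immediate early genes, to which Plk2 and Btg2 are also assigned, had 13 higher and 1 lower of 18 with MFI8 and 4 higher and 0 lower with MASM7. Their median log2 fold change was 0.33 with MFI8 and 0.15 with MASM7. These values rest in part on MFI8 replicate 2, without which the median with MFI8 was 0.198, while without MFI8 replicate 1 it was 0.337. MFI8 replicate 2 was above replicate 1 for 12 of the 18 genes, among them Egr1 (72.7 and 141 CPM in replicates 1 and 2), Fos (0.783 and 2.59) and Klf6 (134 and 181). Under the block 11 of 18 passed higher and 1 lower (Egr3) with MFI8, 3 higher and 0 lower with MASM7, and 8 higher and 2 lower for MFI8 against MASM7. Atf3, a stress transcription factor that binds CRE sites, was at 2.23 and 3.06 CPM with vehicle, 2.47 and 3.65 under MASM7, and 6.75 and 20.9 under MFI8, and its MFI8 libraries lay above the other 4 and far from each other (log2 fold change 2.40 with MFI8, SE 0.46, edgeR adjusted p = 0.186). Fosb and Myc followed with MFI8 (log2 fold change 1.07 and 0.34, edgeR adjusted p = 0.216 and 0.270), and Dusp1 was at 0.79 for MFI8 against MASM7 (edgeR adjusted p = 0.321). With MASM7 the smallest p were those of Fosl1 (0.18), Srf (0.22) and Ier3 (0.27), log2 fold changes that each had an edgeR adjusted p of 0.473 and passed under the block. Beside these values the log2 fold changes of Plk2 (0.26) and Btg2 (0.10) with MFI8 were below the median of the list. A total of 11 genes, Sesn2 and Plk3 among them, stand in more than 1 of the 6 lists.

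**Figure D4:**
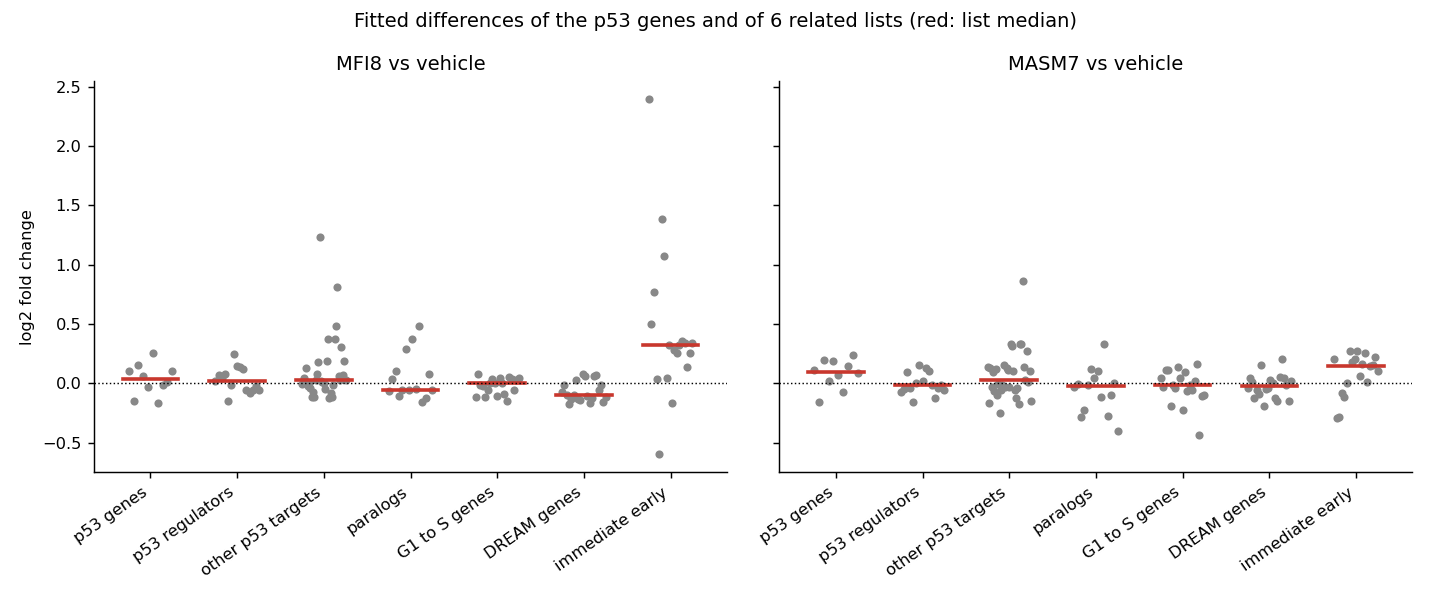
Fitted log2 fold changes against vehicle of the 10 genes and of the tested genes of 6 related lists, with 1 grey point for each gene, a red bar for the median of a list and a dotted line at no difference, for MFI8 on the left and MASM7 on the right. The medians of the members lie at 0.036 and 0.099 and that of the immediate early genes with MFI8 at 0.33.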

How the data were processed

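PolyA RNA of 6 WT MEF libraries, 2 for each of vehicle, MASM7 and MFI8, was sequenced. The authors trimmed the reads (Trimmomatic), aligned them (STAR, GRCm38), counted those over exons (featureCounts) and deposited raw counts for each gene. They also deposited TPM values, which were used for levels between genes, and normalized counts, which were not used. The annotation release, the strand setting of the counting and the gene lengths used for TPM are not given in the sources used here.

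Raw counts of all 6 libraries were fitted in edgeR 4.0.16 (R 4.3.3) with TMM factors, filterByExpr and 1 coefficient per group, and tested by the quasi-likelihood F test with Benjamini-Hochberg adjustment at 0.05 over 14290 genes. The common dispersion came to 0.00394. The standard error was the size of the log2 fold change over the square root of F, and 95% intervals used the fit's degrees of freedom. Log2 CPM of single libraries had a prior count of 2. Counting error is 1 over the square root of the count. A permutation of 2 against 2 libraries cannot give a two-sided p below 0.333, so none was run for single genes. DESeq2 1.42.0, limma 3.58.1 on log2(TPM + 1), other scalings and filters, offsets for GC content and length, a replicate block and leaving out each library were the alternatives. No column was left unmapped (0).

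The 10 genes and all lists were chosen with earlier results of these data known. Every member is named, as are, of each list, the 3 genes with the smallest unadjusted p in a comparison and the genes past adjustment with or without the block (at most 4 by p in a comparison). Fos, Klf6 and Egr3 were named after their values were seen. One listed gene is not reported here. Of Mdm4, Cdkn2a, Bax and Bbc3 the values were added for their place in the pathway. Gene loci are from GENCODE vM21 and promoters from RefSeq, matched by symbol. In a promoter the p53 half-site had to match the 10-base consensus.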

Additional observations from a re-analysis of the deposited data

How the results depend on the processing

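Over 17 alternatives for each of 10 members, direction and call were as reported in 157 of 170 values for MFI8 against vehicle, 166 of 170 for MASM7 against vehicle and 148 of 170 for MFI8 against MASM7. In the last comparison many differences are near 0. DESeq2 size factors in edgeR moved no count or median of the members past its limit. With library size alone the members had a median log2 fold change of 0.047 with MFI8, 0.088 with MASM7 and -0.009 for MFI8 against MASM7, where Btg2 turned to 0.0061. With no filter beyond 1 count in any library, 256, 127 and 168 genes were called in these 3 comparisons, 1 member with MFI8 (Plk2), the medians were 0.044, 0.12 and -0.042, and Ccng1 turned to -0.0061 for MFI8 against MASM7. With at least 10 counts in every library the medians were 0.030 with MFI8 and -0.037 for MFI8 against MASM7, and Ccng1 turned to -0.00011 there. Fits of only the 2 groups compared called 1 gene with MASM7 and 2 for MFI8 against MASM7. DESeq2 called 47, 3 and 24 genes. On log2(TPM + 1), limma called 8, 14 and 13 genes with medians of 0.053, 0.075 and 0.0092, and turned Trp53 with MFI8 to 0.015 and, for MFI8 against MASM7, Cdkn1a to 0.0037 and Btg2 to 0.015. Offsets for GC content and length gave medians of 0.071 and 0.081 against vehicle and turned Ccng1 to -0.023 and Zmat3 to -0.040 for MFI8 against MASM7. The cause was not tested.

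The labels number the replicates without saying that a number marks a batch. Differences between replicates correlated across the 14290 genes by 0.188 for vehicle and MASM7, 0.152 for vehicle and MFI8 and 0.165 for MASM7 and MFI8 (0.508, 0.621 and 0.538 over the 7145 genes of higher level), with the same sign in all 3 groups for 5 of 10 members and 39.9% of all genes. With the replicate block edgeR called 720, 554 and 439 genes and 1 member with MFI8 and 1 for MFI8 against MASM7 (Plk2 in both, adjusted p = 0.000303 and 0.0125), with a median of 0.042 with MFI8. DESeq2 with the replicate block called 224, 193 and 112 genes, with 1 member in the same 2 comparisons. The replicate block with the GC content and length offsets called 595, 152 and 675 genes, with 1 member with MFI8 and 2 for MFI8 against MASM7 (Plk2 and Trp53, the latter at an adjusted p of 0.0142). Its medians were 0.075 and 0.082 against vehicle, and for MFI8 against MASM7 it turned Cdkn1a to 4.5e-05, Ccng1 to -0.021 and Zmat3 to -0.041. The replicate block changed no other call of a member.

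Leaving out each library in turn, where a lone library is assumed to vary like the other groups, called 0 to 26 genes with MFI8, 0 to 2 with MASM7 and 0 to 24 for MFI8 against MASM7, the highest with MFI8 and for MFI8 against MASM7 both without MFI8 replicate 1, and 0 members. The medians ranged from -0.035 to 0.051, from 0.046 to 0.099 and from -0.061 to 0.052. With MFI8, directions turned for Cdkn1a (-0.14 to 0.51), Trp53 (-0.041 to 0.021), Phlda3 (-0.096 to 0.035), Trp53inp1 (-0.054 to 0.064) and Btg2 (-0.037 to 0.21). With MASM7 they turned for Cdkn1a (-0.089 to 0.55), Mdm2 (-0.018 to 0.063), Sesn1 (-0.19 to 0.069) and Trp53inp1 (-0.097 to 0.51). For MFI8 against MASM7 they turned for Cdkn1a (-0.22 to 0.15), Ccng1 (-0.098 to 0.12), Trp53inp1 (-0.50 to 0.10), Zmat3 (-0.036 to 0.085) and Btg2 (-0.15 to 0.1). For the 6 lists of other genes, the replicate block and leaving out each MFI8 library were added after the data had been seen. Calls under the block and some of the medians without an MFI8 library stand with the lists. Trp53inp1 has the lowest counts of the members, which limits its precision.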

Other observations

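By the root mean square difference of log2 CPM over the 6 libraries, after each gene's mean was taken off, the patterns nearest to that of Cdkn1a were those of Ptpn22 (0.035), Amdhd2 (0.040) and Emilin2 (0.054), beside an SD of Cdkn1a itself of 0.25. For Plk2 they were Nudt18 (0.022), Retreg2 (0.029) and Saraf (0.029), beside an SD of 0.13. For Btg2 they were Ttc7b (0.024), Ncam1 (0.027) and 4930581F22Rik (0.028), and for Mdm2 Sidt2 (0.012), Cep295 (0.014) and Stac3 (0.015). With 6 libraries and 14290 genes some patterns lie near any gene, and these names are a description of the libraries.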
